A study of Homo sapiens with 4 samples.

Results

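The genes described here encode enzymes and subunits that write or erase methylation of lysine 4 on histone H3 (H3K4), and the data are ChIP-seq peaks of TAF3, H3K4me3 and RNA polymerase II (RNAPII) at these genes in HCT116 cells, a line established from a human colorectal carcinoma. These 9 genes are KMT2A, KMT2B, KMT2D, SETD1A, WDR5, RBBP5, ASH2L, CXXC1 and KDM5B. A peak was counted for a gene when it overlapped the gene's hg19 span, given to the nearest kb, with 2 kb added at each end. This gave 13 of 17887 TAF3 peaks, 14 of 17975 H3K4me3 peaks and 59 of 61456 RNAPII peaks of the authors' full lists. The series holds 4 libraries of HCT116 cells, 1 each for TAF3, H3K4me3, RNAPII and input DNA, and the labels name no treatment or genetic change. TAF3 was precipitated with a polyclonal serum to residues 290 to 389 of human TAF3, and H3K4me3 and RNAPII with commercial antibodies. After removal of duplicates, the TAF3 library held 17411155 tags, the H3K4me3 library 12560129, the RNAPII library 16841238 and the input library 19185386. Each antibody has 1 library, so variation between replicates is not measured and the intervals on tag counts cover counting error alone. No p-value is given, and fewer cells with a mark cannot be told apart from less of the mark per cell.

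H3K4me3 marks the starts of transcribed genes. In mammals it is deposited by SET-domain enzymes of the KMT2 and SETD1 families, which act in complexes that share the core subunits WDR5, RBBP5 and ASH2L, and it is removed by KDM5 demethylases. KMT2A and KMT2B are homologues of the Drosophila trithorax enzyme, KMT2D is known mainly for monomethylation of H3K4 at enhancers, and SETD1A is the catalytic subunit of a complex that CXXC1, a protein that binds unmethylated CpG, helps to place at promoters. TAF3 belongs to TFIID, the general factor that nucleates the preinitiation complex, and binds H3K4me3 through its PHD finger. The genes examined here thus encode the machinery that sets the mark TAF3 reads.

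Promoter sequence was available for 8 of the 9 genes, in 11 entries, from RefSeq on GRCh38.p14. The peaks are on hg19, so a position in these sequences cannot be set against a summit. The 4 sequences below are those of the genes with the 2 highest and the 2 lowest TAF3 fold enrichments among these 8, chosen after the values were seen. Each runs 5′ to 3′ from 250 bases before to 50 bases after the annotated start, and capitals mark matches on either strand to the TATA box core TATAAA, the GC box core GGGCGG, the CCAAT box, the palindromic NRF1 motif, the ETS-type core CCGGAAG or the YY1-type core AAGATGGCG. Overlapping matches run together.
KDM5B (chr1:202808372-202808671, minus strand): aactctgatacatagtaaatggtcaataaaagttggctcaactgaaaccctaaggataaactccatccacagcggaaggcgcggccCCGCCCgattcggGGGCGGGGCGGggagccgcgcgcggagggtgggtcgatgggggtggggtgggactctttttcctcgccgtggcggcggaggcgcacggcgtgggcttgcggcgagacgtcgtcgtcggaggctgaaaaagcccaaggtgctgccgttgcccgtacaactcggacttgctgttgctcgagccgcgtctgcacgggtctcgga
RBBP5 (chr1:205121929-205122228, minus strand): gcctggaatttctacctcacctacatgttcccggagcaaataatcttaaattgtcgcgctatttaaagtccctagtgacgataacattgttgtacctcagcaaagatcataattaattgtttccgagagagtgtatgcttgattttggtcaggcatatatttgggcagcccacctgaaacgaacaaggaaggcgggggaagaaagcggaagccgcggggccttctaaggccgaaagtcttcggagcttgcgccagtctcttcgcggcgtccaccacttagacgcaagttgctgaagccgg
SETD1A (chr16:30957504-30957803, plus strand): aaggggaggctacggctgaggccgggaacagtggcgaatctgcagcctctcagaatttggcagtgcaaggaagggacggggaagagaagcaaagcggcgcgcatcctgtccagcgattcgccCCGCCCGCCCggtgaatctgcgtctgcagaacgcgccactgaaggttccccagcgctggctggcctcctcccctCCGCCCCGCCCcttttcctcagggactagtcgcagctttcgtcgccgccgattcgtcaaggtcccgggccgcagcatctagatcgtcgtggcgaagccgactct
CXXC1 (chr18:50287643-50287942, minus strand): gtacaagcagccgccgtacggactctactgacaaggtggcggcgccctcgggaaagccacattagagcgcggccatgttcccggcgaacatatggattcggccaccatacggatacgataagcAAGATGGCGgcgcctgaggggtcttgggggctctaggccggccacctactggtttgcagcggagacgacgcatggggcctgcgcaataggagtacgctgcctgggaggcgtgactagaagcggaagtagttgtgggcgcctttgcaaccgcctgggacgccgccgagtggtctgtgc

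The promoters of these genes were mostly rich in CpG, and no match to TATAAA was found in them. KMT2B had 48 CG dinucleotides in its 300 bases, KMT2A 36, KDM5B 34, SETD1A 30, CXXC1 28, KMT2D 27 and RBBP5 18, against a median of 14 over all 35116 promoters of the table. WDR5 has 4 annotated starts, with 6, 16, 31 and 45 CG. TATAAA occurred in 0 of 11 entries and in 11.5% of all promoters. GGGCGG occurred in 8 of 11 entries (6 of 8 genes) and in 45.0% of all promoters. The motif AAGATGGCG was found in the entries of KMT2B and CXXC1, and in 1.75% of all promoters. CCAAT was found in 1 of 11 entries and in 34.6% of all promoters, CCGGAAG in 1 of 11 and in 10.3%, and the NRF1 motif in 0 of 11 and in 1.24%. KDM5B and SETD1A carried 3 and 4 copies of GGGCGG, while CXXC1 and RBBP5 carried 0. The printed promoters of highest and lowest TAF3 fold enrichment therefore did not divide by this motif. RBBP5, with the lowest GC content of those printed, 49.3%, was among the genes with high TAF3 fold enrichment. By tags per kb KDM5B and RBBP5 had ranks 5 and 7 of 9 for TAF3, so their high place holds by fold enrichment alone.

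All 9 genes carried H3K4me3, TAF3 and RNAPII together at their start. The start peak of a gene was the filtered H3K4me3 peak nearest the start end of its span, with the overlapping TAF3 and RNAPII peaks of highest fold enrichment. The authors' filter keeps peaks with a fold enrichment over input above 5 and a false discovery rate below 5%. All 13 TAF3 and all 14 H3K4me3 peaks of these genes passed it, against 65.8% of the TAF3 list and 79.5% of the H3K4me3 list, whereas 23 of 59 RNAPII peaks passed, against 40.7% of the RNAPII list. The joint presence of the 3 antibodies is not particular to these genes, since 94.2% of all filtered H3K4me3 peaks met peaks of both other antibodies in the full lists, and 80.6% did so in the filtered lists. The genes differed in how much of each they carried.

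The start peaks sat in the upper part of the H3K4me3 list. Their median fold enrichment was 185.7, from 129.7 at SETD1A to 242.9 at KMT2A, against a median of 126.1 over all 14298 filtered H3K4me3 peaks, and 9 of 9 exceeded that median. For RNAPII the median was 93.6, from 52.5 at KMT2D to 201.7 at KDM5B, against 44.8 over the 25013 filtered RNAPII peaks, and again 9 of 9 exceeded it. TAF3 ranged more widely relative to its list. Its median was 47.9, from 17.4 at CXXC1 to 112.4 at ASH2L, against 36.1 over the 11765 filtered TAF3 peaks, and 7 of 9 exceeded that median. These filtered lists also hold peaks away from gene starts, so a list of promoters could stand closer to the genes described here than the whole lists do.

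**Figure D1:**
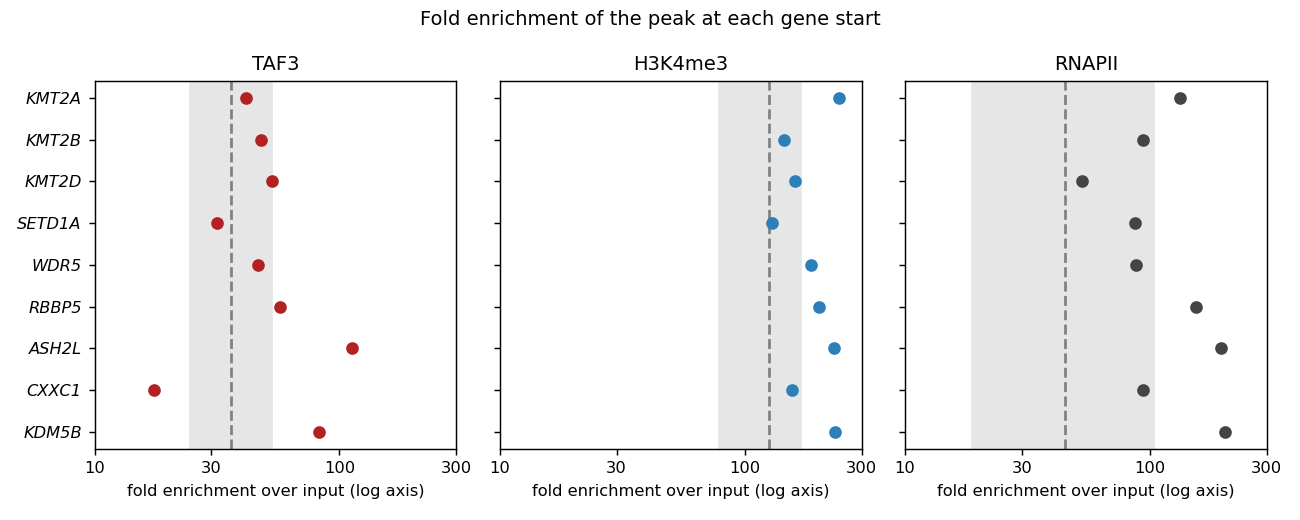
Deposited fold enrichment over input (log axis) of the start peak of each gene, 1 point per gene and 1 panel per antibody, with the median (dashed line) and the interquartile range (grey) of each filtered list. RBBP5, ASH2L and KDM5B lie beyond the upper quartile for all 3 antibodies, and CXXC1 lies below the grey range for TAF3 alone, at 17.4-fold.

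Among the catalytic subunits, KMT2A had the highest H3K4me3 fold enrichment of the 9 genes without a matching TAF3 fold enrichment. At KMT2A the H3K4me3 peak at chr11:118305469-118309215 was 242.9-fold enriched with 1415 tags, above 96.6% of the filtered list. The TAF3 peak at chr11:118305832-118307899 was 41.5-fold enriched with 275 tags, above 59.8% of the TAF3 list. The RNAPII peak there was 132.9-fold enriched with 518 tags. KMT2A thus had the highest rank for H3K4me3 and rank 7 of 9 for TAF3 by fold enrichment. By tags per kb it had rank 7 for H3K4me3, at 378 (358 to 398), and rank 6 for TAF3, at 133 (118 to 150). The contrast between the antibodies therefore holds by fold enrichment and not by density.

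KMT2D ranked differently by tag density and by fold enrichment. Its start peaks were the densest of the 9 genes for TAF3, at 222 tags per kb of peak (95% Poisson interval 205 to 239), and for H3K4me3, at 497 tags per kb (475 to 520). The TAF3 peak at chr12:49452446-49455515 held 681 tags and the H3K4me3 peak at chr12:49451984-49455847 held 1920. RNAPII was 52.5-fold enriched, the lowest of the 9 genes by fold enrichment, with 587 tags. By fold enrichment the TAF3 peak, at 52.8, had rank 4. Fold enrichment is taken at the summit against the local background and density over the whole peak, so the measures need not order genes alike.

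At KMT2B the H3K4me3 signal was called as a pair of peaks, at chr19:36206495-36208851 with 749 tags (144.9-fold) and at chr19:36208964-36210435 with 675 tags (129.8-fold), 112 bp apart. A single TAF3 peak, chr19:36206785-36209933, bridged the gap and overlapped both, with 494 tags and 47.9-fold enrichment, and its summit lay 53 bp past the gap. The RNAPII peak was the widest start peak of the 9 genes, 6844 bp, with 1007 tags and 93.4-fold enrichment. It reached 3416 bp beyond the upstream edge of the H3K4me3 peak, towards ZBTB32, the upstream neighbour on the same strand in RefSeq.

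SETD1A had the lowest H3K4me3 of the 9 genes by fold enrichment and by tags per kb. Its H3K4me3 peak at chr16:30967710-30970670 was 129.7-fold enriched with 888 tags, 300 tags per kb (95% Poisson interval 280 to 320), and its TAF3 peak was 31.5-fold enriched with 229 tags. The TAF3 value lay above 40.6% of the filtered TAF3 list. RNAPII was 86.7-fold enriched with 496 tags. The H3K4me3 interval of SETD1A overlaps that of the KMT2B start peak, 318 tags per kb (295 to 341), so the order of the lowest pair is within counting error. The other H3K4me3 peak at KMT2B had 459 tags per kb (425 to 494), and with it KMT2B would not be in the lowest pair.

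Of the shared core subunits, ASH2L carried the strongest TAF3 peak. At ASH2L the TAF3 peak at chr8:37962042-37963928 was 112.4-fold enriched with 375 tags, above 98.3% of the filtered list. H3K4me3 was 232.2-fold enriched with 1139 tags and RNAPII 195.1-fold with 675 tags, above 94.6% and 96.8% of their lists. By fold enrichment RBBP5 followed, with TAF3 at 56.9-fold (237 tags), H3K4me3 at 201.8-fold (1119 tags) and RNAPII at 154.7-fold (408 tags). Its RNAPII peak was the narrowest start peak of that antibody, 1296 bp, with 315 tags per kb (285 to 347), next to ASH2L with 332 (307 to 358). These 2 genes held more RNAPII per kb than the other 7, and their intervals overlap each other and no other. WDR5 had TAF3 at 46.4-fold (384 tags), H3K4me3 at 185.7-fold (1648 tags) and RNAPII at 87.8-fold (623 tags). By tags per kb WDR5 had rank 2 for H3K4me3, at 470 (448 to 494), against 388 (366 to 411) at RBBP5. For TAF3 it had 162 (146 to 179), against 126 (110 to 143) at RBBP5, which had rank 7 of 9. The order of WDR5 and RBBP5 for TAF3 and H3K4me3 is thus reversed by density.

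CXXC1 had the lowest TAF3 level of the 9 genes by both measures, while by fold enrichment its H3K4me3 and RNAPII lay above the medians of their lists. TAF3 at chr18:47813033-47814760 was 17.4-fold enriched with 126 tags, above 9.24% of the filtered TAF3 list. H3K4me3 at chr18:47812404-47815063 was 156.1-fold enriched with 1025 tags, above 67.7% of its list. RNAPII was 93.6-fold enriched with 392 tags, above 70.9% of its list. The TAF3 density of CXXC1 was 72.9 tags per kb (95% Poisson interval 60.7 to 86.8), and the next gene upward, SETD1A, had 102 (89.5 to 116). This was the only step in the TAF3 order of the 9 genes where the intervals of neighbours did not overlap. The RNAPII peak at CXXC1 was 4270 bp wide and by density the lowest of the 9 genes, 91.8 tags per kb (82.9 to 101). This too was separated from the next gene, KMT2B, with 147 (138 to 157).

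KDM5B, the demethylase, was high for all 3 antibodies by fold enrichment. RNAPII at chr1:202776420-202777915 was 201.7-fold enriched with 299 tags, above 97.4% of its list and the highest of the 9 genes. TAF3 was 82.5-fold enriched with 232 tags, above 93.2% of its list, and H3K4me3 was 232.7-fold enriched with 1046 tags, above 94.8%. Its peaks were 1493 bp wide for TAF3 and 1496 bp for RNAPII, a little below the medians of the filtered lists, 1549 and 1623 bp. By tags per kb it had rank 5 for TAF3, at 155 (136 to 177), and rank 4 for RNAPII, at 200 (178 to 224). The high rank of KDM5B for TAF3 and RNAPII therefore holds by fold enrichment and not by density over the peak.

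**Figure D2:**
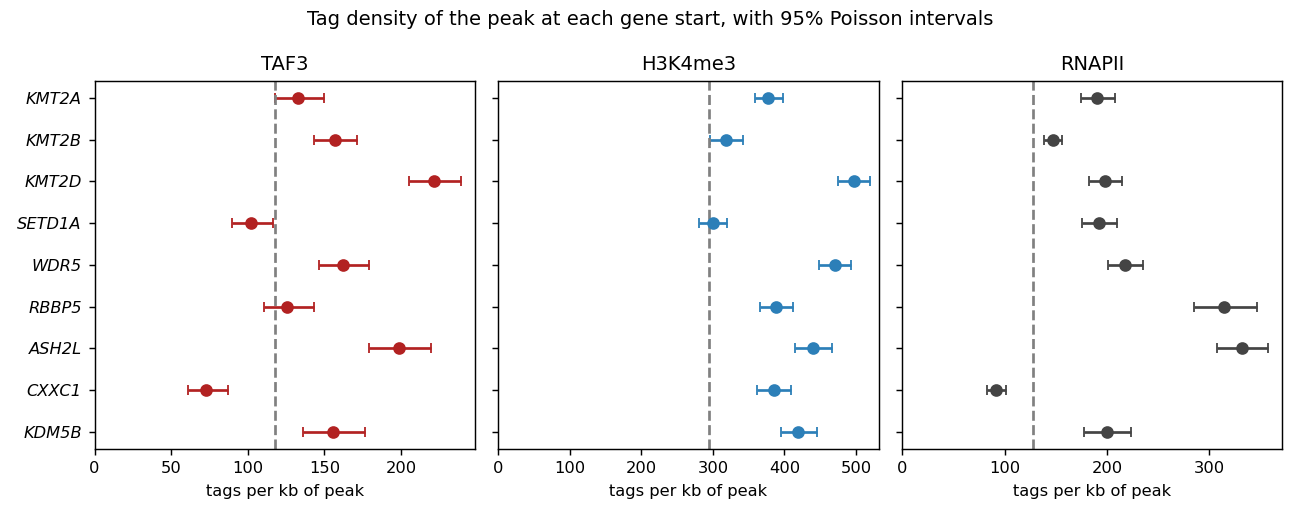
Tags per kb of the start peak of each gene for each antibody, with exact 95% Poisson intervals as bars, and the median of each filtered list as a dashed line. CXXC1 is lowest for TAF3 (72.9) and RNAPII (91.8) but not for H3K4me3, and ASH2L and RBBP5 are highest for RNAPII.

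Most steps in the order of the genes were within counting error. In the order by tags per kb, intervals of neighbours overlapped in 7 of 8 steps for TAF3, 7 of 8 for H3K4me3 and 5 of 8 for RNAPII. From high to low the TAF3 order was KMT2D, ASH2L, WDR5, KMT2B, KDM5B, KMT2A, RBBP5, SETD1A and CXXC1. For H3K4me3 it was KMT2D, WDR5, ASH2L, KDM5B, RBBP5, CXXC1, KMT2A, KMT2B and SETD1A, with the separated step between KMT2A and KMT2B. The place of KMT2B rests on which peak of its pair is used, since the other peak had 459 tags per kb (425 to 494). The RNAPII order was ASH2L, RBBP5, WDR5, KDM5B, KMT2D, SETD1A, KMT2A, KMT2B and CXXC1. As a description across the 9 genes, whose fold enrichments share 1 input library, the rank correlation was 0.55 between TAF3 and RNAPII, 0.50 between TAF3 and H3K4me3 and 0.72 between H3K4me3 and RNAPII. By the distance between the 3 log2 fold enrichments, the closest pairs were KMT2B with WDR5 (0.37) and ASH2L with KDM5B (0.45), and the gene farthest from any other was CXXC1, whose nearest was SETD1A at 0.90.

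TAF3 summits lay close to RNAPII summits, and H3K4me3 summits lay mostly downstream. The distance from the TAF3 to the RNAPII summit was 14 bp at ASH2L, 31 at RBBP5, 38 at SETD1A, 47 at CXXC1, 58 at KDM5B, 59 at KMT2A, 87 at KMT2D, 162 at WDR5 and 1539 at KMT2B. The median was 58 bp, against 43 bp over the 11484 filtered TAF3 peaks with both partners. The H3K4me3 summit lay at a median of 582 bp from the TAF3 summit, against 231 bp over those peaks, and the RNAPII summit was the nearer at 8 of 9 genes, as it was at 76.9% of those peaks. Along the direction of transcription it was downstream of the TAF3 summit at 7 of 9 genes, by 101 bp at CXXC1 to 995 bp at WDR5. At ASH2L it was 446 bp upstream and at KMT2B 732 bp upstream. With the other H3K4me3 peak at KMT2B the direction turned, to 521 bp downstream, which makes 8 of 9 genes. The RNAPII summit was upstream of the TAF3 summit at 8 of 9 genes, the exception being SETD1A. At 7 of 9 genes these summits lay within 100 bp of each other. The same share over the TAF3 peaks compared was 67.8%, so this closeness is not particular to these genes. For neither partner was the direction computed over all TAF3 peaks, so it is not shown to be particular to these genes. No error can be given for a summit position from 1 library.

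**Figure D3:**
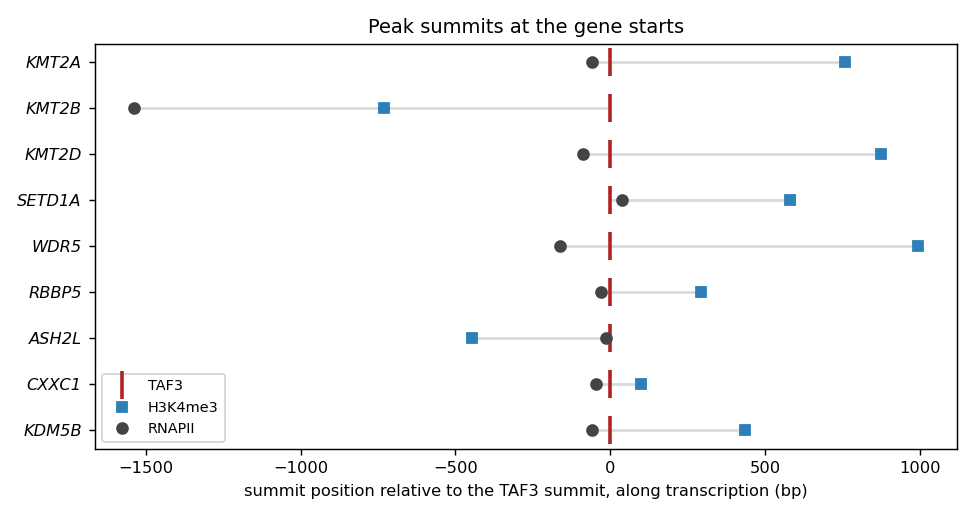
Summits of H3K4me3 (squares) and RNAPII (circles) relative to the TAF3 summit (bar at 0), in bp along the direction of transcription, 1 row per gene. RNAPII lies within 162 bp of TAF3 at every gene but KMT2B, and H3K4me3 lies to the right of TAF3 at 7 of 9 genes, or 8 of 9 with the other H3K4me3 peak at KMT2B.

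The TAF3 peak lay wholly inside the H3K4me3 start peak at 8 of 9 genes, the exception being KMT2B with its split H3K4me3 signal, and 83.8% of the filtered TAF3 peaks that meet a filtered H3K4me3 peak did so. At these 8 genes H3K4me3 reached past the TAF3 peak by a median of 323 bp upstream (128 to 427) and 657.5 bp downstream (337 to 1316). The downstream reach was the longer at 7 of the 8, most at KMT2A with 1316 bp against 363 bp upstream. ASH2L had 337 bp downstream and 361 bp upstream. The reach to either side was not computed over all TAF3 peaks, so its direction is not shown to be particular to these genes. Strands came from the RefSeq promoter table, except for ASH2L, which was taken as a plus-strand gene from general knowledge.

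Beyond the start, the genes differed most in RNAPII over their length. RNAPII peaks that overlapped the span and no H3K4me3 peak, called body peaks here, numbered 40, in 6 of 9 genes. KMT2D had 11, KMT2B 9, SETD1A 7, KMT2A 6, WDR5 6 and CXXC1 1, while RBBP5, ASH2L and KDM5B had 0. KDM5B has a span of 82 kb and KMT2D one of 42 kb, so gene length did not order these counts. No TAF3 peak of the 9 genes lay in a body without H3K4me3. All 13 TAF3 peaks overlapped an H3K4me3 peak, as did 86.6% of the TAF3 list.

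The body peaks were weak beside the start peaks. The median fold enrichment of the body peaks was 7.47 (range 4.54 to 33.8), against 9.87 for the 43362 RNAPII peaks of the full list without H3K4me3, and their median density was 45.4 tags per kb, against 43.2. Of the 40, 8 passed the filter, and 30 of the others had a fold enrichment above 5 and failed on the false discovery rate alone. Counting 5 further peaks in the flanks, 45 of the 59 RNAPII peaks lacked H3K4me3, against 70.6% of the RNAPII list, and 9 of these 45 passed the filter, against 22.9% of all such peaks. These shares lie near those of the list.

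**Figure D4:**
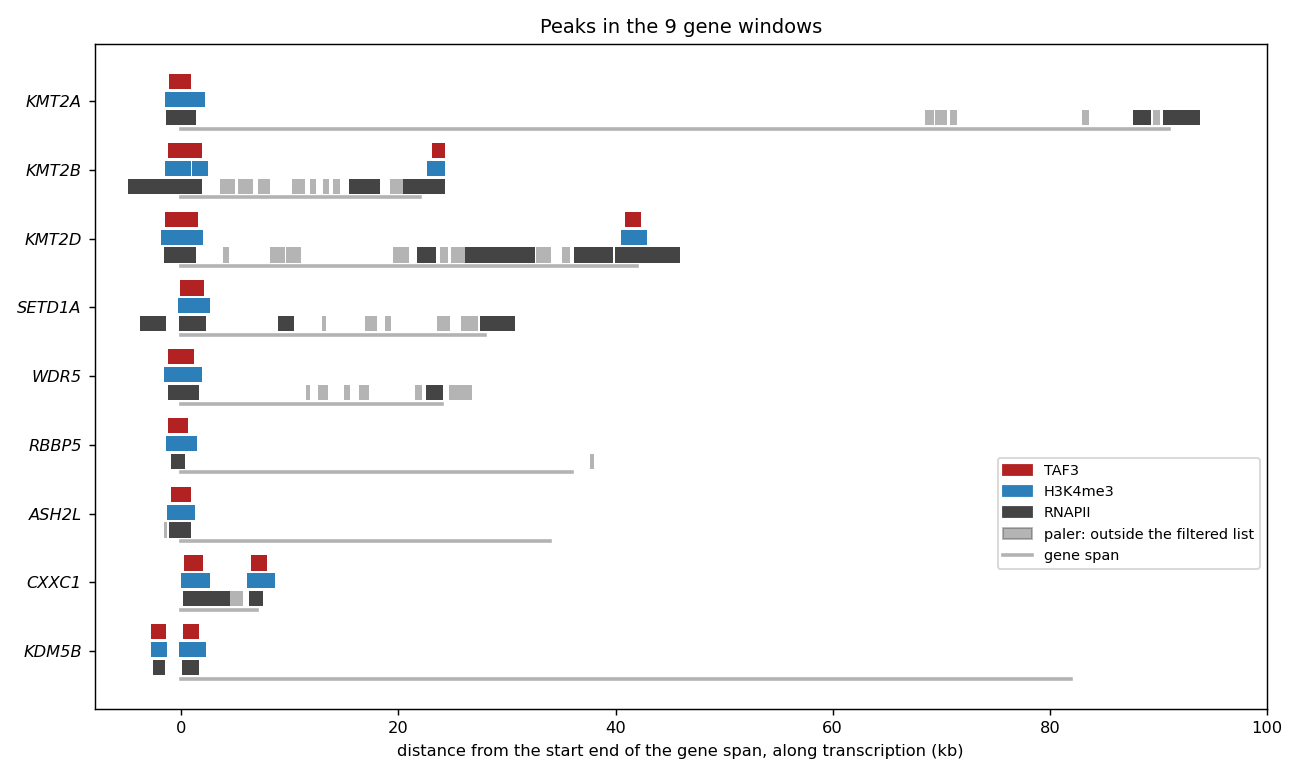
Peaks of TAF3, H3K4me3 and RNAPII in the 9 gene windows, drawn to scale in kb from the start end of each span along transcription, with the span as a grey line and peaks outside the filtered lists in paler colour. KMT2D and KMT2B show RNAPII peaks along the gene, KMT2A shows them beyond 68.5 kb alone, and RBBP5, ASH2L and KDM5B show none inside the gene apart from the start.

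KMT2D and KMT2B were covered by RNAPII peaks of the full list along much of their length. At KMT2D the body peaks covered 49.5% of the span and held 1283 tags, 2.19 times the 587 tags of its start peak. Of its 11 body peaks, 3 passed the filter, so these values rest in part on peaks outside the filtered list. The strongest body peak of KMT2D was also its widest, chr12:49421446-49427873, with 555 tags and 17.3-fold enrichment at 26.1 to 32.6 kb from the start. At KMT2B the body peaks covered 48.3% of the span and held 495 tags, against 1007 in the start peak. Only 1 of its 9 body peaks, chr19:36223420-36226294 with 139 tags, passed the filter.

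In SETD1A 7 body peaks covered 24.3% of the span. The 6 of them with a summit inside the span held 334 tags, against 496 at the start. The remaining one, chr16:30995475-30998690 with 259 tags and 33.8-fold enrichment, was the strongest and widest and straddled the far end of the span with its summit beyond it, on the side of HSD3B7, whose start faces SETD1A in RefSeq. WDR5 had 6 body peaks over 21.1% of its span with 229 tags, all from 11.5 kb onward, and the strongest, at chr9:137023532-137025068 with 83 tags and 11.0-fold enrichment, lay at the far end. CXXC1 had a single weak one, 54 tags and 5.22-fold. Its RNAPII start peak already ran from 0.186 to 4.455 kb of its 7 kb span, and no body peak is counted there.

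KMT2A had no RNAPII peak between its start peak and 68.5 kb into a span of 91 kb. Its 6 body peaks lay in the last part of the gene, covered 6.05% of the span and held 271 tags, against 518 in the start peak. The strongest was chr11:118394630-118396312, with 100 tags and 16.0-fold enrichment. A further RNAPII peak, chr11:118397471-118400798 with 284 tags, straddled the far end and touched an H3K4me3 peak of 107.1-fold enrichment that begins 2.30 kb past the span. Over the 6 genes with body peaks, 29 of 40 were centred beyond the midpoint of the span. This count includes the SETD1A peak that straddles the far end of its span. Start peaks take up part of each span before the midpoint and are not counted. The same share over all genes was not computed, so no lean towards the far end can be read from the count.

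RBBP5, ASH2L and KDM5B had strong start peaks and no called RNAPII peak along the gene. Their start peaks of RNAPII were 154.7-, 195.1- and 201.7-fold enriched, and these were the 3 highest of the 9 genes. The lists hold only places that passed the MACS p cutoff, and the smallest body peak found in the other genes had 14 tags, so lower RNAPII levels along these genes would not be seen. RBBP5 had a peak of 16 tags past its far end, and ASH2L one of 11 tags upstream of its start, both outside the filtered list.

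At 4 genes the window held another place with all 3 antibodies, beyond the start peaks. At KMT2D it was at the far end of the gene, where TAF3 at chr12:49411673-49413135 was 88.8-fold enriched with 275 tags, H3K4me3 180.2-fold with 776 tags and RNAPII 179.3-fold with 973 tags. All 3 exceeded the fold enrichments at the KMT2D start, but by tags per kb all 3 were below the start. H3K4me3 had 317 tags per kb (295 to 340) at the far end, against 497 (475 to 520) at the start. RNAPII had 161 (151 to 171), against 198 (182 to 214). For TAF3 the intervals overlapped, 188 (166 to 212) against 222 (205 to 239). PRKAG1, a subunit gene of AMP-activated kinase, is a RefSeq neighbour on that side and on the same strand, so that its start faces the far end of KMT2D.

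At CXXC1 the other place, also at the far end, had TAF3 at 26.4-fold (166 tags), H3K4me3 at 136.4-fold (1002 tags) and RNAPII at 98.5-fold (487 tags). Its neighbour there is MBD1, a gene for a methyl-CpG-binding protein, which lies on the same strand and whose start faces CXXC1. The TAF3 value at this place was higher than at the CXXC1 start, and it still lay above only 28.9% of the filtered list. TAF3 was thus in the lower part of its list at both ends of this gene. By density the places were separated beyond counting error, with 107 TAF3 tags per kb (91.2 to 124) at the far end, against 72.9 (60.7 to 86.8) at the CXXC1 start.

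At KDM5B the other place lay upstream of the start, with TAF3 at 52.6-fold (140 tags), H3K4me3 at 89.8-fold (230 tags) and RNAPII at 143.0-fold (312 tags). PCAT6, a long noncoding RNA once named KDM5B-AS1, is a RefSeq neighbour on that side, on the opposite strand. H3K4me3 there was 230 tags, against 1046 at the KDM5B start, while RNAPII was 312, against 299. At KMT2B the place past the far end, on the side of IGFLR1, was low for TAF3 and H3K4me3 and not for RNAPII. TAF3 was 16.1-fold enriched (76 tags) and H3K4me3 62.9-fold (238 tags), above 6.95% and 19.3% of their filtered lists. RNAPII was 51.3-fold enriched (498 tags), above 53.0% of its list. These places fall in the windows by the 2 kb added or by overlap with the gene's end, and annotation of the files' build was not used here, so they are not assigned to a gene.

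The added 2 kb sets which of these places count. The TAF3 peak just inside the edge was the one upstream of KDM5B, 1.44 kb from the span. Just outside lay a place past the far end of KMT2A, with H3K4me3 at 107.1-fold, TAF3 at 31.1-fold (214 tags) and RNAPII at 72.6-fold, whose TAF3 peak begins 2.88 kb from the span. With 10 kb added, the windows held 19 TAF3, 20 H3K4me3 and 84 RNAPII peaks.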

How the data were processed

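ChIP-seq of TAF3, H3K4me3 and RNAPII and an input library were made from HCT116 cells fixed for 10 min in 1% formaldehyde and read for 36 bp, per the labels. The submitters' processing notes name CASAVA 1.8.2, MACS 1.4.2 and build hg19. The alignment parameters are not given in these sources. Each antibody's peaks were called against the same input, per the file headers, with a p cutoff of 1e-05 and at most 1 tag kept per position, which bounds the count of dense places. Duplicates made up 40.2% of the H3K4me3 tags and 2.57% to 16.1% of the tags of the other libraries.

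The authors' tag counts per peak are whole numbers without depth scaling. The authors' fold enrichment is a ratio to the local background that input predicts, their score is minus log10 of the p-value times 10, and their false discovery rate is a percent from swapping ChIP and input. The filtered lists were checked to hold exactly the peaks with fold enrichment above 5 and false discovery rate below 5%.

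Gene spans in hg19 came with the choice of genes. The genes, their grouping by role and the motifs were chosen with earlier results of these data known. All 9 genes are described, with each start peak, every further filtered TAF3 or H3K4me3 peak and the strongest and widest further RNAPII peak. Percentiles are the share of the filtered list with a lower fold enrichment. Intervals on tags are exact 95% Poisson intervals and cover counting error only. RefSeq tables on GRCh38.p14 gave strand, promoter sequence and the order of neighbours; spans of further genes of the pathway were not analysed here. Coordinates count from 1. The software was scipy 1.17.1, pandas 2.3.3 and numpy 2.4.6 under Python 3.11.15, with figures by matplotlib 3.10.9, and the overlap and interval code passed 5 of 5 checks on simulated data. Alternatives were filtered lists, other flanks, other start-peak rules and other rankings.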

Additional observations from a re-analysis of the deposited data

How the results depend on the processing

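No paired analysis was possible because each antibody has 1 library and no result comes from a test, and no replicate could be left out. The 9 of 9 genes with a peak, for each antibody, and with all 3 at the start held under every alternative run for them. The number of peaks ran from 11 to 19 for TAF3 and from 12 to 20 for H3K4me3 under the alternatives, against 13 and 14 as reported, and the RNAPII peaks ran from 53 to 84 where the full list was kept. With filtered lists the RNAPII peaks numbered 23 and those away from the start peak 14, against 59 and 50 with full lists. By tags per kb the start peaks had a median percentile of 74.5 (TAF3), 77.3 (H3K4me3) and 69.0 (RNAPII), and by score, with ties from 3100 upward placed at their middle, 78.9, 62.3 and 83.3. The order of the genes depended on the measure: by tags per kb, 5 genes for TAF3, 5 for H3K4me3 and 2 for RNAPII stayed within 1 rank of their place by fold enrichment. With the H3K4me3 peak of highest fold enrichment in the window, which moves KMT2D to its far end, the median RNAPII fold enrichment was 132.9. With the nearest summit of the full list, the median distance from TAF3 to H3K4me3 was 521 bp. The use of the other H3K4me3 peak at KMT2B and the counts of body peaks were chosen after seeing the data. Of the RNAPII body peaks, 32 of 40 were outside the filtered list, and 39 had their summit inside the span. How depth bears on them was not tested.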
